A study of Mus musculus with 8 samples.

Results

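The organic anion, cation and drug carrier genes of mouse kidney tubuloids were taken as every gene symbol of the Slc22a, Slco and Slc47a families in the deposited tables, with counts summed over the transcripts of a symbol. This gave 43 genes of 24063. Of these, 18 passed the filter on low counts and were tested, and 25 did not. Tubuloids form in Matrigel from plated fragments of kidney tubules, here of mice aged postnatal day 7 to 10 by the labels (the methods of the study give a younger range). The mice of both groups were Pkd2fl/fl Pax8rtTA TetOCre mTmG, that is, they carried floxed Pkd2, an inducible Cre driven through the Pax8 promoter and a colour reporter. The labels name no inducing drug for these cultures. All cultures grew in medium with HGF, EGF and bFGF, 4 received a pulse of the growth factor GDNF for 24 h, 4 served as controls, and RNA was collected on culture day 7. Cultures carry the numbers 3, 7, 14 and 21 (control) and 6, 12, 17 and 22 (GDNF). The labels do not say which animal gave which culture, so p-values measure the spread between these cultures, and fewer cells of a type and less RNA per cell cannot be told apart.

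Kidney proximal tubule cells clear drugs, toxins and metabolites from blood into urine in steps. Carriers at the blood side of the cell (the anion carriers OAT1 and OAT3, encoded by Slc22a6 and Slc22a8, and the cation carrier OCT2, encoded by Slc22a2) take substrates up, and carriers at the urine side, such as MATE1 (Slc47a1), release them. The SLCO family, the organic anion transporting polypeptides, moves bile acids, prostaglandins and thyroid hormones, and several of its members are found far outside the kidney.

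The total count per culture lay between 72991721 and 97490625. Between genes, levels are given as TPM, the authors' length-normalized abundance, of the most abundant transcript. Between cultures, they are given as CPM, counts scaled to a common library size after TMM normalization, an adjustment for the makeup of each library. TPM carried a shift in makeup: among the 13698 genes that averaged 1 TPM or more, 78.6% were higher in TPM after GDNF, and their median log2 ratio was 0.40. The summed markers of proximal tubule lay between 40.2 and 56.2 CPM in all cultures. Among them, Slc34a1, the phosphate carrier that defines this segment, was at most at 6 counts. Lrp2, the endocytic receptor megalin, was at most at 0.969 CPM. Higher members of the list were Slc5a2 (7.26 to 13.6 CPM), Ass1 (7.54 to 14.7 CPM), Gatm (6.11 to 16.8 CPM) and Ggt1 (2.85 to 19.6 CPM). The summed markers of fibroblasts and stroma ran from 853 CPM in GDNF culture 6 to 5125 CPM in control culture 14, and those of epithelium from 558 CPM in control culture 14 to 3779 CPM in control culture 21.

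A few members carried most of the RNA. Slc22a17, Slco3a1, Slco4a1 and Slco2a1 together held 74.7% to 83.5% of the summed carrier TPM in each culture, and they were the 4 members with a mean of at least 10 TPM. A mean of at least 1 TPM was reached by 12 members. At the other end, 12 members never exceeded 3 counts in any culture, the floor used here, and 6 of them were at 0 throughout (Slc22a7, Slc22a20, Slc22a22, Slc22a27, Slco6c1 and Slco6d1).

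**Figure D1:**
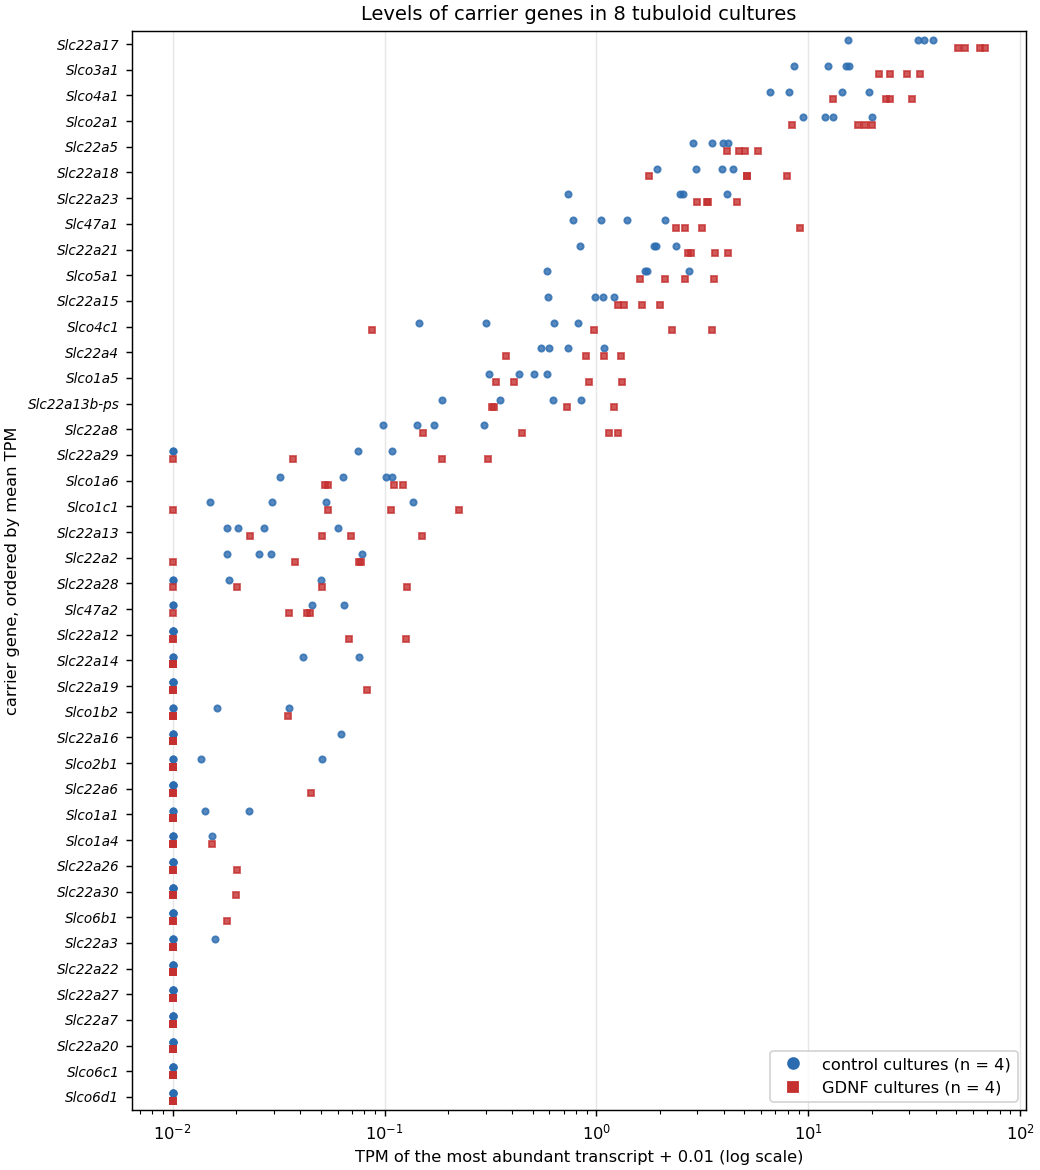
TPM of the most abundant transcript plus 0.01 (log scale) for the carrier genes, ordered by mean TPM, with control cultures as circles and GDNF cultures as squares (n = 4 each). Slc22a17 stands at the top between 15.3 and 68.4 TPM, and genes listed at 0 sit at the left edge.

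The order of levels was clear at some steps only. Slc22a17, at a mean of 45.1 TPM over the 8 cultures, was above Slco3a1, at 19.997 TPM, in 8 of 8 cultures. Slco3a1 has 2 listed transcripts with nearly equal counts, and TPM here takes 1 of them. The place of Slco3a1 in the order therefore depends on that choice. Slco3a1 was above Slco4a1 (17.5 TPM) in 5 cultures and Slco4a1 above Slco2a1 (14.8 TPM) in 4, so these neighbours did not differ beyond their spread. Slco2a1 was above Slc22a5 (4.26 TPM) in 8 of 8 cultures. Below it, Slc22a5 exceeded Slc22a18 (4.14 TPM) in 3 cultures, and Slc22a23 (3.02 TPM), Slc47a1 (2.82 TPM), Slc22a21 (2.53 TPM) and Slco5a1 (2.07 TPM) followed with overlapping ranges. Slc22a18 also has 2 listed transcripts with nearly equal counts, so its place depends on the same choice.

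The sequence upstream of the start also differed among the members. CG dinucleotides are depleted in most of the mouse genome and kept at many promoters of broadly used genes. They were counted in the 250 bases upstream of a listed RefSeq start of each gene (GRCm38.p6), which is not always the outermost. An entry was found for 36 of the 43 members, and for some of them this start differs from that of the counted transcript. For some, among them Slc22a15, Slc22a4, Slc22a8, Slc22a29 and Slco2a1, the whole window lies inside the annotated gene. The counts therefore do not all describe sequence upstream of the gene. The 13 members with an entry that were tested had a median of 12 CG (range 0 to 32). The 23 that were not tested had a median of 1 (range 0 to 18), and all 27025 genes with an entry had a median of 6. This look at the upstream bases was chosen after the levels were known and no test was run on it. The stretches of 6 genes are shown because they span those differences, with every CG in capitals, 5′ to 3′ on the strand of the gene, and shortened where the annotated gene begins within the window. Slc22a17 was the highest member in TPM of 1 transcript, and Slco4c1 was a kidney carrier that was detected. Slc22a23 had the most CG in its full window, 32, of which the shortened stretch shows 21. Slc47a2 was rich in CG but near 0 in RNA, and Slc22a2 and Slc22a6 encode classical drug carriers of the adult kidney that were at or near 0.
Slc22a17 (chr14:54913133-54913382, minus strand): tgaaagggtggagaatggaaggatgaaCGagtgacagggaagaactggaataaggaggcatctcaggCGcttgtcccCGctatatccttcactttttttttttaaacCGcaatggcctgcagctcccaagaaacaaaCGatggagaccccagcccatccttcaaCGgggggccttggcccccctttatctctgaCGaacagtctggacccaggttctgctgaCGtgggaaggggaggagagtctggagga
Slc22a23 (chr13:34345276-34345468, minus strand): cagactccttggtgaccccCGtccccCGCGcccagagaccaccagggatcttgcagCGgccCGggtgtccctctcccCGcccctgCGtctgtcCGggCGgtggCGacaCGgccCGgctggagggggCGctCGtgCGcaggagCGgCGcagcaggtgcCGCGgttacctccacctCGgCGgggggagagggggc
Slco4c1 (chr1:96872194-96872421, minus strand): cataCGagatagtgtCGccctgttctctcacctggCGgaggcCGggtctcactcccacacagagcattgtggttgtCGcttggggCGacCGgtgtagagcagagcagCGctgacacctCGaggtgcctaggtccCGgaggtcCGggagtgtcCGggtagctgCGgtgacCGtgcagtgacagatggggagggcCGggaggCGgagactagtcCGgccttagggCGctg
Slc47a2 (chr11:61342861-61343110, minus strand): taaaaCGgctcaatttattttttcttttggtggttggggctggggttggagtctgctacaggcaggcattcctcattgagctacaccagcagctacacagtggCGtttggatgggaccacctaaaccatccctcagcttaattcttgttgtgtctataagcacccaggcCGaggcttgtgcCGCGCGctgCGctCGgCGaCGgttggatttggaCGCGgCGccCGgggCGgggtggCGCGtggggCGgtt
Slc22a2 (chr17:12583939-12584188, plus strand): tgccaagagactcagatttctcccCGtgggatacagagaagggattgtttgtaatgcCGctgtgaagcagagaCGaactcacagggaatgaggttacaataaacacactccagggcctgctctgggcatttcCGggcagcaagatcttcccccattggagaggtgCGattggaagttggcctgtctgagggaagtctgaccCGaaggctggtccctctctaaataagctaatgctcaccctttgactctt
Slc22a6 (chr19:8617746-8617995, plus strand): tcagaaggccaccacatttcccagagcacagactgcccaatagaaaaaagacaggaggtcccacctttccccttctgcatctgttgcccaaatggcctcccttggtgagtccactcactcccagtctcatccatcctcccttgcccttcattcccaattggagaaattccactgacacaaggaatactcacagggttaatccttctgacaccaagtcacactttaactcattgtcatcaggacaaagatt

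**Figure D2:**
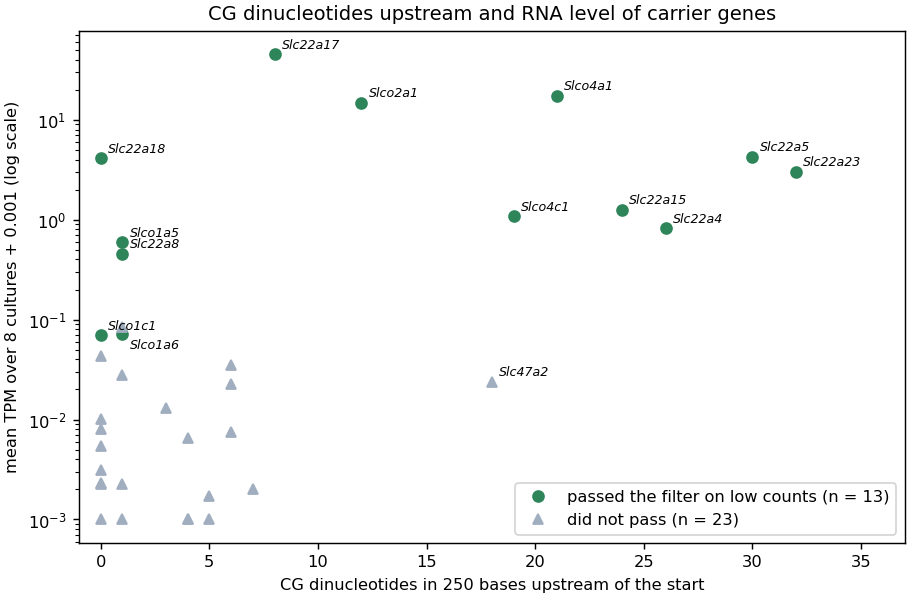
CG dinucleotides in the 250 bases upstream of the listed start used (horizontal) against mean TPM over 8 cultures plus 0.001 (vertical, log scale) for the 36 carrier genes with a RefSeq entry. For some genes this window lies inside the annotated gene. Circles mark the 13 tested genes and triangles the 23 that were not tested, among which Slc47a2 had 18 CG.

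The comparison of GDNF with control cultures asked which carriers differed after the pulse. No carrier gene passed an adjusted p of 0.05 in the quasi-likelihood test of edgeR (Benjamini-Hochberg over all 16557 genes tested), and neither did any other gene (0% called, the lowest adjusted p being 0.167). Of the tested members, 4 carrier genes were higher after GDNF (Slco3a1, Slc22a17, Slc22a8 and Slc47a1) and 0 were lower at an unadjusted p of 0.05, beside 9.25% of all genes higher and 12.9% lower. The log2 fold change was above 0 for 15 of the 18 tested members and below 0 for 3. Over all 16557 genes tested, 8691 were above 0 and 7866 below. The median was 0.30 for the tested members beside 0.03 over all genes tested. With DESeq2 at its default settings, Slco3a1 was the 1 carrier past an adjusted p of 0.05 (0.0336), beside 1.36% of genes called higher and 7.65% called lower.

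**Figure D3:**
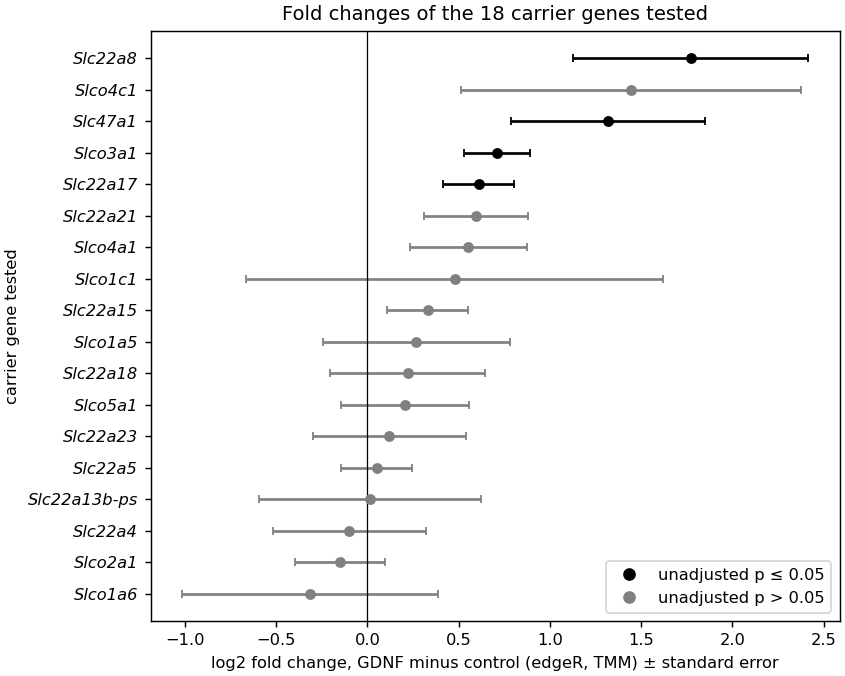
Log2 fold change, GDNF minus control, with its standard error (horizontal bars) for the 18 carrier genes tested. Black marks the 4 genes at or under an unadjusted p of 0.05, and 15 of the points lie right of 0.

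Among the SLCO members, Slco3a1 encodes a broadly expressed carrier of prostaglandins and thyroid hormone (chromosome 7, 74275418 to 74554780, GRCm38). It was at 68.1, 87.0, 71.6 and 83.7 CPM in control cultures 3, 7, 14 and 21, and at 167, 99.5, 113 and 128 CPM in GDNF cultures 6, 12, 17 and 22. Every GDNF culture was above every control, with culture 6 highest. The log2 fold change was 0.71 (SE 0.18, unadjusted p = 0.00279, adjusted p = 0.167), and the mean TPM was 12.9 ± 3.18 (SD, n = 4) in controls and 27.1 ± 5.29 (SD, n = 4) after GDNF. The difference in CPM had the smallest two-sided p that an exact permutation test over 70 assignments can give, 0.0286.

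Slco4a1, a thyroid hormone carrier (chromosome 2, 180456226 to 180474853), was at 21.4, 27.6, 12.7 and 34.6 CPM in control cultures 3, 7, 14 and 21. In GDNF cultures 6, 12, 17 and 22 it was at 38.4, 37.7, 20.2 and 44.8 CPM. The groups overlapped, since GDNF culture 17 lay below 3 of the controls. The fitted log2 change was 0.55 (SE 0.32, unadjusted p = 0.116), which did not pass the threshold.

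Slco2a1, the prostaglandin transporter (chromosome 9, 103007061 to 103096002), was at 32.8, 32.8, 30.0 and 46.5 CPM in control cultures 3, 7, 14 and 21. The GDNF cultures 6, 12, 17 and 22 were at 17.99, 34.5, 37.3 and 38.2 CPM. Culture 6 was the lowest of all 8 and the rest overlapped with the controls. On the log2 scale the change was -0.15 (SE 0.25, unadjusted p = 0.556), and its sign was opposite to that of the TPM difference of 2.40, which carries the shift in makeup.

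Among the SLCO members at lower levels, Slco4c1, which encodes a blood-side carrier of the kidney, was at 0.773 ± 0.549 CPM in controls and 2.10 ± 1.93 CPM after GDNF (SD, n = 4 each; log2 fold change 1.44, SE 0.93, unadjusted p = 0.153). Slco5a1, whose substrates are little known, had a log2 fold change of 0.21, and Slco1c1, a thyroid hormone carrier of brain vessels, one of 0.48 on at most 26 counts of its most abundant transcript. Slco1a5 had 0.27 and Slco1a6 had -0.31. These 2 lie with 4 other Slco1 genes in 799 kb of chromosome 6, a cluster of 6 genes with 3 tested, and Slco1b2, the liver carrier of this cluster, had at most 5 counts. The other Slco genes that were not tested had at most 11 counts of their most abundant transcript, the highest being Slco2b1 in control culture 14.

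Among the SLC22 members with other or unknown substrates, Slc22a17 (chromosome 14, 54906727 to 54913132) encodes a protein described as a receptor for the iron-binding protein lipocalin 2. It was at 30.1, 50.2, 55.5 and 43.6 CPM in control cultures 3, 7, 14 and 21, and at 67.2, 78.6, 58.2 and 69.8 CPM in GDNF cultures 6, 12, 17 and 22. The lowest GDNF culture, 17, was above the highest control, 14. The log2 fold change was 0.61 (SE 0.20, unadjusted p = 0.0108, adjusted p = 0.167), and the exact permutation p of the CPM difference was 0.0286. The mean TPM was 30.5 ± 10.4 (SD, n = 4) in controls and 59.6 ± 8.24 (SD, n = 4) after GDNF. These 2 genes, Slco3a1 and Slc22a17, were the 2 carriers without overlap between the groups in CPM, beside 6.99% of all genes tested with every GDNF culture higher and 6.26% with every one lower.

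Slc22a18, a gene of an imprinted region (chromosome 7, 143473726 to 143499334), was at 7.52, 7.32, 3.58 and 7.68 CPM in control cultures 3, 7, 14 and 21. It was at 12.7, 7.73, 2.63 and 7.32 CPM in GDNF cultures 6, 12, 17 and 22, so that the highest and the lowest culture were both GDNF cultures. Its log2 fold change was 0.22 (SE 0.43, unadjusted p = 0.618). Slc22a23 had 0.12 and Slc22a15 had 0.33, and Slc22a14 had at most 7 counts.

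Of the carnitine and zwitterion carriers, Slc22a4, Slc22a5 and Slc22a21 lie side by side in 165 kb of chromosome 11. Slc22a5 (53864542 to 53891796) encodes OCTN2, the main carnitine carrier of kidney and muscle. It was at 7.55, 7.69, 8.02 and 6.32 CPM in control cultures 3, 7, 14 and 21, and at 8.35, 7.30, 8.96 and 6.04 CPM in GDNF cultures 6, 12, 17 and 22. The ranges nearly coincided, with a log2 fold change of 0.05 (SE 0.19, unadjusted p = 0.794). Slc22a4, which encodes the ergothioneine carrier OCTN1, had -0.10, and Slc22a21, a carnitine carrier, had 0.60 (SE 0.28, unadjusted p = 0.0625). Slc22a21 shared 23.8% of its 50-base words with Slc22a5, so reads can be split between them and both counts are uncertain. Slc22a16, the carnitine carrier of testis, had at most 7 counts.

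Of the organic anion carriers of the SLC22 family, 1 of 13 was tested. Slc22a8, which encodes OAT3 (chromosome 19, 8591254 to 8611835), was at 1.37, 0.815, 0.512 and 1.64 CPM in control cultures 3, 7, 14 and 21. It was at 6.66, 2.15, 0.708 and 5.29 CPM in GDNF cultures 6, 12, 17 and 22. The groups overlapped, because GDNF culture 17 lay among the controls while cultures 6 and 22 lay well above them. The log2 fold change was 1.77 (SE 0.64, unadjusted p = 0.0207, adjusted p = 0.177), with an exact permutation p of the CPM difference of 0.143. The unadjusted p was 0.0717 without GDNF culture 6, 0.0538 without GDNF culture 22, 0.0547 without control culture 7 and 0.145 with limma-voom. The gene has 3 listed transcripts with nearly equal counts, so its sum can hold a read more than once. In TPM the gene stayed low, at 0.167 ± 0.0851 (SD, n = 4) in controls and 0.743 ± 0.541 (SD, n = 4) after GDNF.

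Slc22a6, whose product OAT1 is the main blood-side anion carrier, lies 6160 bases from Slc22a8 on the same strand. It was listed at 0 in 7 of 8 cultures and at 7 counts in GDNF culture 6. The chromosome 19 cluster of 8 anion carriers spans 955 kb and held 17 to 214 counts per culture when the most abundant transcript of each gene is added up. Slc22a12, the urate carrier, had 13 and 5 counts in GDNF cultures 6 and 22 and 0 elsewhere, and Slc22a29 had at most 25 counts.

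No organic cation carrier of the SLC22 family was tested. Slc22a2 (OCT2) had 0 to 9 counts and Slc22a3 (OCT3) at most 1 count. A difference between the groups was not detectable at these counts.

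The multidrug and toxin extrusion pair lies on chromosome 11 with 539 bases between the genes, both on the minus strand. Slc47a1, which encodes MATE1 (61343400 to 61378842), was at 3.12, 3.44, 1.26 and 1.595 CPM in control cultures 3, 7, 14 and 21. In GDNF cultures 6, 12, 17 and 22 it was at 12.9, 3.44, 4.15 and 2.94 CPM. GDNF culture 6 stood far above the rest, and the others were near the upper controls. The log2 fold change was 1.32 (SE 0.53, unadjusted p = 0.0325, adjusted p = 0.197) and the exact permutation p of the CPM difference was 0.114. Without GDNF culture 6 the log2 fold change was 0.58 (unadjusted p = 0.178), and that p was 0.0696 without control culture 14, 0.0929 without control culture 21 and 0.118 with limma-voom. GDNF culture 6 also had the lowest stroma marker sum. It had the highest sums of markers of thick ascending limb and distal convoluted tubule (84.0 CPM), principal and intercalated cells (64.7 CPM) and proximal tubule (56.2 CPM). The part of these markers in the result was not tested. Slc47a2, its neighbour, had at most 8 counts. The pseudogene Slc22a13b-ps, which shared 49.9% of its 50-base words with Slc22a13, had a log2 fold change of 0.01.

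**Figure D4:**
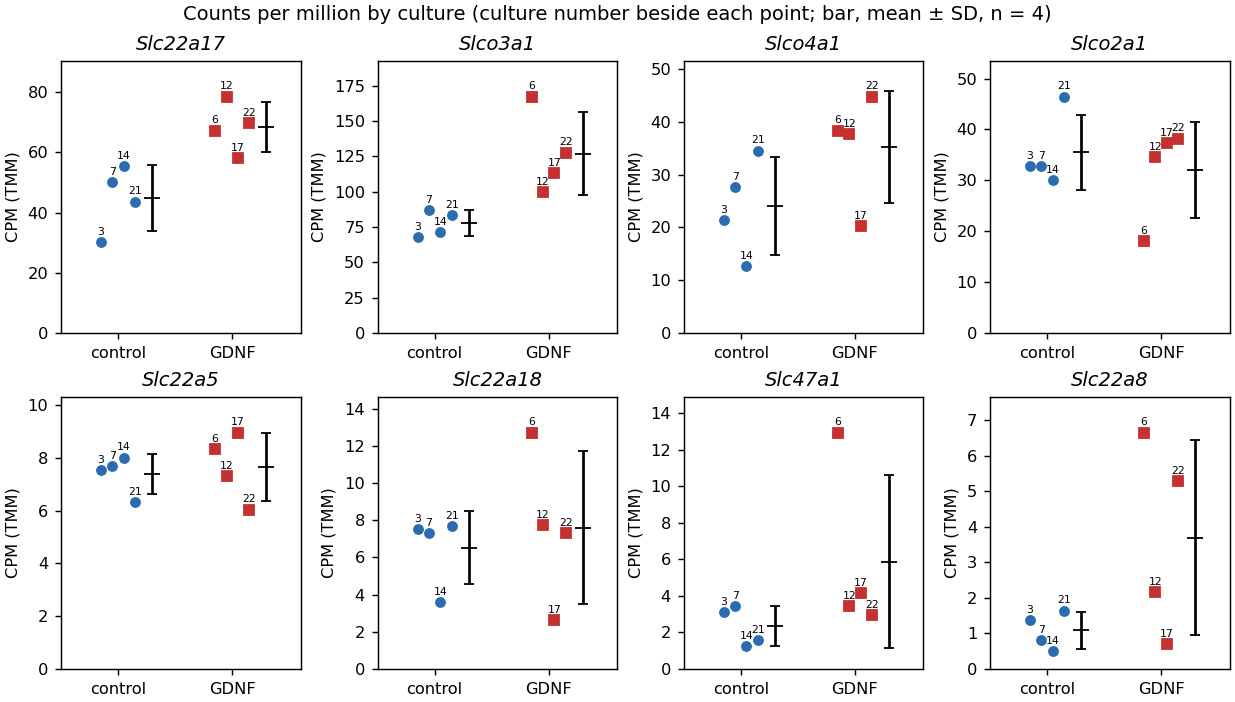
CPM after TMM normalization in each culture (culture number beside each point) for 8 carrier genes, with mean ± SD (bars, n = 4 per group). The groups are apart for Slc22a17 and Slco3a1, and culture 6 stands alone for Slc47a1.

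The other genes of the pathway were read from lists chosen with earlier results known. Of 5 apical drug efflux pumps, 4 were tested and 1, Abcg2, which encodes the efflux pump BCRP, was lower at the unadjusted p, with 73.8 ± 11.8 CPM in controls and 45.5 ± 2.08 CPM after GDNF (SD, n = 4 each; log2 fold change -0.70, SE 0.15, adjusted p = 0.167). None of the 3 tested genes of dicarboxylate supply, the 4 scaffold proteins or the 7 tested transcription factors was past the unadjusted p in either direction. Hnf4a, a factor of proximal tubule genes, was at 0.301 ± 0.275 CPM in controls and 1.03 ± 0.834 CPM after GDNF (SD, n = 4 each; log2 fold change 1.76, unadjusted p = 0.0669). Of 13 proximal tubule markers tested, Acsm2 was higher at the unadjusted p and none was lower. The shares over all genes tested, to be set beside each of these lists, were 9.25% higher and 12.9% lower at the unadjusted p. Of the markers of other cell types, Lum (stroma) and Krt8 (epithelium) were lower and Tek and Flt1 (endothelium) higher at that p. These genes do not stand for their lists. In endothelium, 3 tested markers had a log2 fold change above 0 and 3 below. In epithelium these were 3 and 5, and in stroma 3 and 7. The part of the markers in the carrier values was not tested.

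Cultures also differed in sex-linked RNA. Control cultures 3 and 7 and GDNF cultures 6 and 12 had Xist, the RNA of the inactive X chromosome, above Y-linked RNA, and the other 4 the reverse. Cultures 3 and 6 held both, with 1.502 and 6.46 TPM of Y-linked RNA. In a fit with pulse and kind of culture, chosen after these values were seen, 0 carriers passed the adjusted p for kind, beside 0.411% of all genes. At the unadjusted p, 3 carriers were higher in cultures with Xist, beside 7.13% of all genes, and 0 were lower, beside 5.22%. Slco4c1 was at 2.43 CPM on average in cultures with Xist and 0.447 CPM in the others (log2 difference 2.33, SE 0.64, unadjusted p = 0.00492, adjusted p = 0.196), and every culture with Xist was above every other. Slco1a5 had a log2 difference of 1.21 (unadjusted p = 0.00933) and Slc47a1 one of 1.20 (unadjusted p = 0.01002), with overlapping ranges. The summed markers of principal and intercalated cells moved with this split, at 28.3 to 64.7 CPM against 8.03 to 10.3 CPM, as did those of thick ascending limb and distal convoluted tubule, at 36.5 to 84.0 CPM against 8.56 to 23.6 CPM, and their part was not tested. Within each kind, the mean of Slco3a1 was higher after GDNF, at 134 against 77.5 CPM with Xist and 120 against 77.7 CPM without. Slc22a17 was at 72.9 against 40.2 CPM and at 64.0 against 49.6 CPM. The difference of the pulse effect between kinds passed an unadjusted p of 0.05 for 0 carriers and an adjusted p for 0 of all genes.

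**Figure D5:**
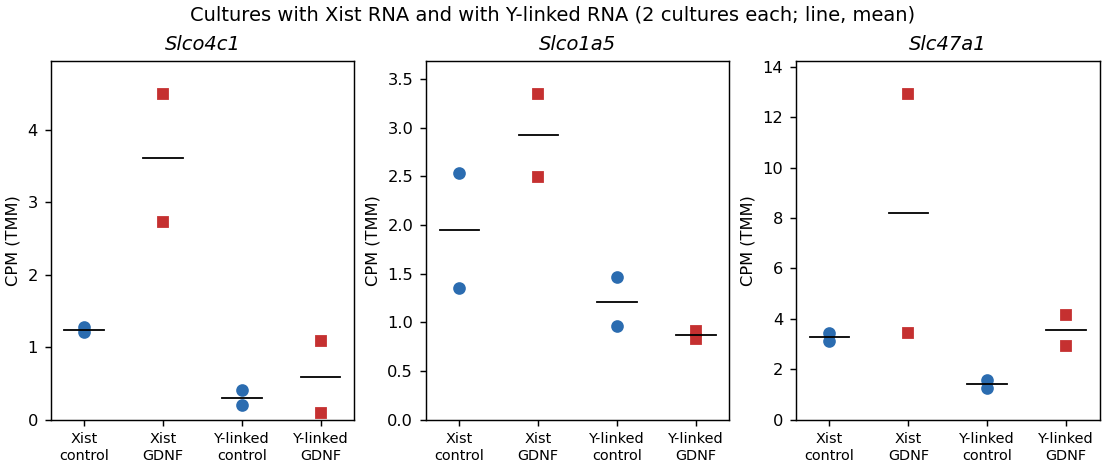
CPM after TMM normalization of Slco4c1, Slco1a5 and Slc47a1 in control and GDNF cultures, split by Xist and Y-linked RNA (2 each, horizontal line at the mean). For Slco4c1 all cultures with Xist lie above those with Y-linked RNA.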

How the data were processed

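RNA-Seq of 4 GDNF and 4 control cultures was analysed. Groups came from the sample titles and treatment labels. Per the labels, the authors mapped reads with STAR to mm10 (GRCm38); the submitters' processing notes also name featureCounts and DESeq2. Versions, strand handling and the flow cell lane of each culture are not given in the sources used here. The deposited counts are whole numbers per transcript, without normalization. The authors' deposited TPM is normalized for length and depth within a culture, and their deposited FPKM gave transcript lengths here. How reads that fit several transcripts or genes were counted is not given in those sources, so a sum over the transcripts of 1 gene can hold a read more than once.

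Symbol sums entered R 4.3.3 and edgeR 4.0.16, using glmQLFit and glmQLFTest after filterByExpr and TMM, with Benjamini-Hochberg adjustment over 16557 genes. The standard error was the absolute log2 fold change divided by the square root of the F statistic. Members named in full had an unadjusted p of 0.05 or less, no overlap in CPM, or one of the 6 highest mean TPM. Exact permutation tests were two-sided over 70 assignments. Alternatives included DESeq2 1.42.0 and limma 3.58.1. The members and lists were chosen with earlier results of these data known. The fit by Xist and Y-linked RNA, the upstream sequences and their printed choice, the gene clusters, the shared 50-base words and 3 alternatives were chosen after seeing the data. On simulated counts with 200 genes changed 2-fold, edgeR recovered 11% and DESeq2 48.5%, with 27.6% of the DESeq2 calls false. Total counts of 72991721 to 97490625, which can hold a read more than once, make counting error small beside the spread between cultures for genes with high counts. This does not hold for genes with few counts. Tested carriers among them include Slco1a6, at 3 to 17 counts, and Slco1c1, at 0 to 26 counts of its most abundant transcript. Positions and upstream sequences are from RefSeq (GRCm38.p6). Tables and plots used pandas 2.3.3, matplotlib 3.10.9, SciPy 1.17.1 and NumPy 2.4.6 under Python 3.11.15. Of the genes listed, 1 carrier and 1 listed transcription factor are not reported here on their own.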

Additional observations from a re-analysis of the deposited data

Results flagged for a closer look

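In 40 sets of 4 cultures, 4 had a culture whose gap to the nearest other, divided by the range, was above Dixon's 95% critical value, and chance gives about 1 in 20, or 2. Slc47a1 in GDNF culture 6, at 12.9 CPM, was far above the other GDNF cultures. Slc22a18 in control culture 14, at 3.58 CPM, was below the other controls. Slc22a23 in GDNF culture 12, at 14.4 CPM, was above the other GDNF cultures. The TMM factor of control culture 3, at 0.790, was below those of the other controls. The causes were not tested.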

How the results depend on the processing

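No paired analysis was possible because the groups share no culture numbers. Each tested carrier was refitted under up to 19 alternatives, 3 of them added after seeing the data. Slco3a1 and Slc22a17 were above 0 with an unadjusted p of 0.05 or less in 19 of 19, with log2 fold changes of 0.49 to 0.92 and 0.46 to 0.80. Slc22a8 was above 0 in 19, at 1.32 to 2.12, and had such a p in 14 (highest 0.145), and Slc47a1 likewise in 14 of 19, at 0.58 to 1.56 (highest p 0.178). Leaving out each culture in turn, edgeR called 0 genes at the adjusted p, 2 to 6 carriers were higher at the unadjusted p (2 without GDNF culture 6), and the median log2 fold change was 0.23 to 0.45. The share of all genes at the unadjusted p is not given here for these refits. The carrier counts therefore do not show whether carriers differ from other genes.

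DESeq2 depended on its settings. Its default called 1057 genes at an adjusted p of 0.05. After that result was seen, its independent filtering was set for 0.05, which gave 1242, and the same setting on the genes that passed the edgeR filter gave 1346. Under all 3, 1 carrier was called, Slco3a1 (adjusted p 0.0336, 0.0281 and 0.0257), where edgeR called 0. Slc22a17 had 0.0710, 0.0582 and 0.0558, and Slc22a8 and Slc47a1 got no adjusted p.

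The median was 0.53 by library size only, 0.17 with the Xist covariate and 0.43 without control culture 3 and GDNF culture 6, a pair left out together after seeing the data. Without that pair 2 carriers were higher at the unadjusted p, as with limma-voom with quality weights. The share of all genes is likewise not given for these fits or for the fit with no filter on low counts. With no filter on low counts, 1 carrier, Slco2b1, was lower. Its summed count was 33 in control culture 14 (11 of its most abundant transcript), 3 in control culture 7 and 0 elsewhere. That call thus rests mainly on 1 culture. In the same edgeR fit Slc22a12, with at most 13 counts, was higher (log2 fold change 5.21, unadjusted p = 0.0425). In TPM, 5 carriers had every GDNF culture higher, beside 20.6% of all genes tested, against 2 in CPM, beside 6.99%.

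Signs changed for genes near 0. Slc22a13b-ps was at -0.0116 with DESeq2 size factors in edgeR, -0.0133 with DESeq2 at either of its first 2 settings, -0.0116 at the third, -0.0252 with limma-voom, -0.0163 with the covariate and -0.00569 without the pair. Slc22a4 was at 0.123 by library size, 0.0761 with limma-voom and 0.130 without the pair. Slco2a1 was at 0.0630 by library size and 0.00930 without the pair, and its TPM difference was opposite to that in CPM, -3.49. Slc22a18 was at -0.0472 with limma-voom and -0.0729 without the pair. With single cultures left out, signs also changed for these genes, with ranges of -0.50 to 0.38 for Slc22a13b-ps, -0.29 to 0.15 for Slc22a4, -0.246 to 0.0457 for Slco2a1 and -0.15 to 0.50 for Slc22a18. The same held for Slc22a23 (-0.19 to 0.32), Slc22a5 (-0.0644 to 0.150), Slco1a5 (-0.16 to 0.59), Slco1a6 (-0.66 to 0.11), Slco1c1 (-0.38 to 1.56) and Slco5a1 (-0.0307 to 0.531). The causes were not tested. Depth limits what can be said of the 25 carriers that were not tested.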
